A study of Mus musculus with 9 samples.

Results

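The small leucine-rich proteoglycans are secreted matrix proteins, and 10 of their genes were followed here across the E14.5 mouse skull: Dcn (decorin), Bgn (biglycan), Aspn (asporin), Fmod (fibromodulin), Lum (lumican), Prelp, Kera (keratocan), Omd (osteomodulin), Ogn (osteoglycin) and Podn (podocan). They were chosen by name, out of 43548 gene identifiers in the expression table, and all 10 were among the 18714 genes with enough signal to be tested. RNAseq had been performed on 3 groups of 3 libraries, each library a pool of 3 tissue samples. The first group was cranial vault of MCAGF8 embryos, in which a Cre driven by Msx2 regulatory sequence removed the stop cassette of CAGF8, an Fgf8b gain-of-function allele at the ROSA26 locus. That Cre works in the surface ectoderm of the head and not in the skull mesenchyme beneath it, and the skin was peeled off before the vault tissue was taken. The remaining groups were the cranial vault and the cranial base cartilage of control embryos, which are labelled wildtype, lacked Cre and, by the breeding described, carried the CAGF8 allele with its stop cassette in place. Both genotypes were on a mixed background. Base cartilage was collected from the control embryos after their vault tissue. Which vault and base pools correspond is not stated. Libraries were fitted as if independent, and p-values below measure the spread between pools.

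These proteins share a core of leucine-rich repeats that binds collagen fibrils and sets their diameter and spacing, and many of them carry chondroitin, dermatan or keratan sulfate chains. Decorin and biglycan also bind TGF-beta family growth factors. Osteomodulin is a keratan sulfate proteoglycan of mineralizing bone, fibromodulin is typical of tendon and cartilage, and keratocan is best known from the cornea. In whole tissue, fewer cells of a type and less RNA per cell cannot be told apart.

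Most of the 10 genes are neighbours in the genome. In the GENCODE M21 annotation of GRCm38, Aspn (chr13:49544443-49567565), Omd (chr13:49582462-49592822) and Ogn (chr13:49608046-49624501) follow each other on the plus strand behind the related gene Ecm2, a stretch of 119.7 kb with no other protein-coding gene wholly inside it. Dcn (chr10:97479609-97518143), Lum (chr10:97565128-97572703) and Kera (chr10:97606879-97613692) lie in the same way before Epyc, within 202.8 kb on chromosome 10. Prelp (chr1:133910304-133921414, minus strand) and Fmod (chr1:134037254-134048277, plus strand) point away from each other on chromosome 1. Bgn lies alone on chromosome X (chrX:73483602-73495933) and Podn on chromosome 4 (chr4:108014791-108096445, minus strand). Podn shares 52607 bases with the protein-coding gene Scp2 on the same strand, but no exons of these genes overlap. The whole chromosome 13 trio lies within Cenpp, a centromere gene on the opposite strand whose exons overlap those of Aspn and not those of Omd or Ogn, and exons of the antisense RNA Gm15851 overlap those of Prelp. The libraries were stranded, but whether the strand was used in assigning reads is not stated.

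In the trio on chromosome 13, the ratio of Ogn to Aspn stayed within a 1.50-fold range over the libraries, while ratios of Omd to either did not. The 250 bases before the annotated start are shown for this trio and for the divergent pair Prelp and Fmod. They are RefSeq sequences of GRCm38.p6, 5′ to 3′ on the strand of the gene, at chr13:49544193-49544442 for Aspn, chr13:49582212-49582461 for Omd, chr13:49607765-49608014 for Ogn, chr1:133921402-133921651 for Prelp and chr1:134037004-134037253 for Fmod. Capitals mark matches to 7 short motifs searched on both strands.
Aspn: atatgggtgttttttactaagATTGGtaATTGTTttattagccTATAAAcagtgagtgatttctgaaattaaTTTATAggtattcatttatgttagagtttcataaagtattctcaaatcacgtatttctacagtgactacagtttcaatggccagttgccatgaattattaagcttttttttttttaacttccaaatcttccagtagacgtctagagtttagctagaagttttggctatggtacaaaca
Omd: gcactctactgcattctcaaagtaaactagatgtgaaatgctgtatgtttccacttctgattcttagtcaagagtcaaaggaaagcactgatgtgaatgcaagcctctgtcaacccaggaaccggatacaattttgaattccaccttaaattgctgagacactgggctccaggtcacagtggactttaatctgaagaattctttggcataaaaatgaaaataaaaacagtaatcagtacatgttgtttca
Ogn: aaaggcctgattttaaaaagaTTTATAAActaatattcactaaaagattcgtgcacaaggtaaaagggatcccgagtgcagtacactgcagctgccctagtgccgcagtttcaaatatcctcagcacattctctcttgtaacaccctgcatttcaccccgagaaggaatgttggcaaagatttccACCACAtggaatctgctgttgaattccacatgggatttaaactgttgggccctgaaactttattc
Prelp: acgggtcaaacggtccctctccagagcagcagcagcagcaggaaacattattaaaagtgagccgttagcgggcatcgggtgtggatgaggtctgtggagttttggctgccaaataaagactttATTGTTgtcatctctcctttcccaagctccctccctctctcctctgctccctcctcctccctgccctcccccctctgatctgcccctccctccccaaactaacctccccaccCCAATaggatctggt
Fmod: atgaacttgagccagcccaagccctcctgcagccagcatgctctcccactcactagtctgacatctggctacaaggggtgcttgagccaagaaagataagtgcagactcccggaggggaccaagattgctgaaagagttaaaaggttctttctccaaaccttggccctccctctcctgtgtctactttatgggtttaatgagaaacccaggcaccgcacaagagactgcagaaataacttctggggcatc

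The motifs were TATAAA (in 12.4% of 32851 RefSeq promoter windows of the same length), the RUNX core TGTGGT (14.0%), the AP-1 motif TGANTCA (6.75%), CCAAT (33.9%), the GC box GGGCGG (32.7%), the SOX core AACAAT (9.42%) and the ETS core CCGGAAGT (2.88%). The Aspn window held TATAAA starting 207 bases before the start on the gene's strand and again at 178 on the other strand, with CCAAT at 229 and AACAAT at 222, both on the other strand. In the Ogn window TATAAA matched on both strands in overlapping positions, at 227 and 229, and TGTGGT matched on the other strand at 65. Prelp held CCAAT at 15 and, on the other strand, AACAAT at 127. None of the 7 sets of letters is in the Omd or the Fmod window. A promoter window was available for 8 of the 10 genes, and Dcn and Lum had none. These matches describe the letters alone.

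The tissue labels were read against marker genes before the comparisons. In the control base, Col2a1, the main cartilage collagen, was at 163, 2292 and 268 FPKM (fragments scaled to transcript length and to the mapped reads of the library) in replicates 1 to 3, so replicates 1 and 3 were below the control vault libraries at 373 to 462. In the MCAGF8 vault Col2a1 was at 583, 1146 and 1114 FPKM. Of 11 chondrocyte genes, 11 were higher in the MCAGF8 vault than in the control vault and 0 were called. The summed FPKM of 12 skeletal muscle genes ran from 2164 to 13099 in the base, from 1207 to 7134 in the control vault and from 35.0 to 332 in the MCAGF8 vault. Fgf8 itself, which the allele expresses in the removed skin, was at 13.5, 8.25 and 3.01 FPKM in the control vault, at 19.5, 9.43 and 13.0 in the MCAGF8 vault and at 3.78, 17.4 and 5.82 in the base, and the groups overlapped. Epidermal genes were nonetheless detected in the vault, with a sum over 12 genes of 381 to 978 FPKM in the MCAGF8 vault against 30.5 to 100.3 in the control vault. Of these, 11 of 12 were higher in the MCAGF8 vault and 2, Krt5 and Pkp1, were called. The sum of 7 dermal fibroblast genes was 992 to 1493 against 563 to 788, with 4 of 7 higher, 3 lower and none called in limma. Of the 4 with an unadjusted p under the threshold, Lef1, Twist2 and Crabp1 were higher and Mfap5 was lower. Mean Crabp1 was 866 against 403 FPKM, and mean Mfap5 was 8.09 against 45.5 FPKM. The part of skin cells in the differences between the vaults was not tested.

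Small leucine-rich proteoglycan RNA was abundant in all 3 tissues and lower in the base. FPKM are scaled to transcript length, so levels of different genes can be set side by side, but only roughly. Relative to the mean of the libraries, log2(FPKM + 1) still changed with log2 exon length. The slopes ran from -0.213 in control base replicate 1 to 0.0964 in control base replicate 2. The 10 genes summed to 3252 ± 158 FPKM (SD, n = 3) in the control vault, 3304 ± 164 in the MCAGF8 vault and 1643 ± 372 in the control base. Bgn, Lum and Dcn together made up 82.4% ± 2.66 of that sum in the control vault, 84.0% ± 2.46 in the MCAGF8 vault and 76.0% ± 9.42 in the base. Base replicate 2, the library with the high Col2a1, had the lowest such share, 65.9%, and the highest shares of Ogn, at 15.3%, and Aspn, at 10.2%.

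**Figure D1:**
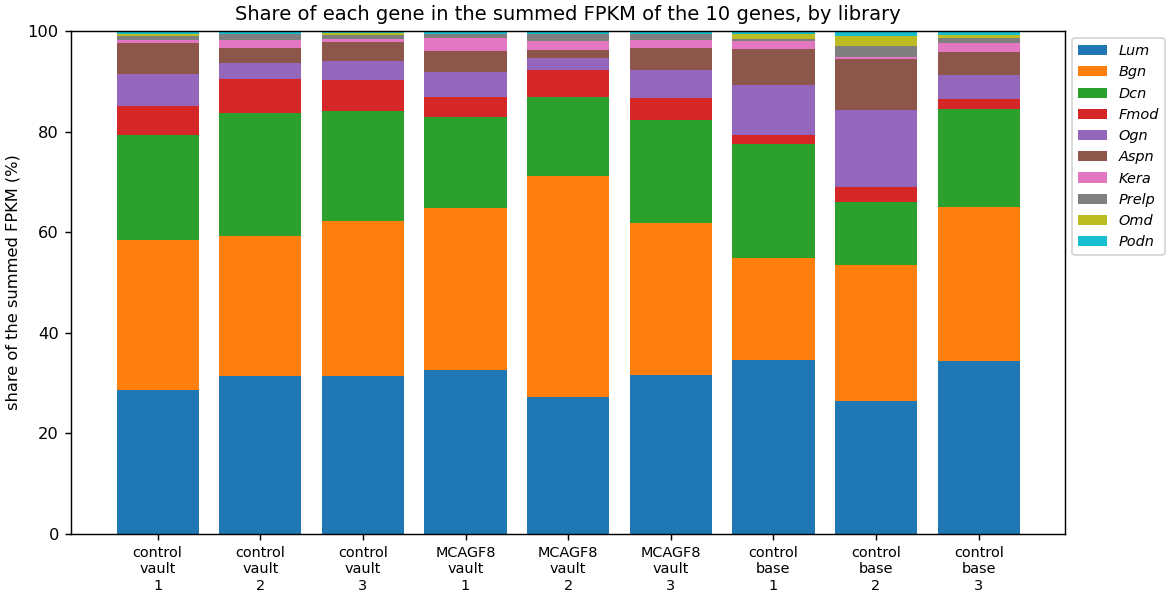
Stacked bars give, for each of the 9 libraries, the percent of the summed FPKM of the 10 genes that each gene contributes. Lum, Bgn and Dcn fill 65.9% to 86.8% of every bar, and the Omd band is under 0.05% in the 3 MCAGF8 vault libraries.

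In the control vault the order of mean levels was Lum, Bgn, Dcn, Fmod, Ogn, Aspn, Kera, Prelp, Podn and Omd, from 992 ± 97.5 down to 9.59 ± 4.11 FPKM. Neighbours in that order overlapped between libraries except Bgn over Dcn, Dcn over Fmod, Aspn over Kera and Prelp over Podn. In the MCAGF8 vault Bgn stood first at 1166 ± 181 FPKM, overlapping Lum, and Omd was last at 1.10 ± 0.325, apart from Podn. In the base, Lum at 524 ± 161 and Bgn at 414 ± 7.10 led with overlapping libraries, and Fmod, next after Dcn in the control vault, lay below Ogn and Aspn with no overlap with Aspn. Omd in the base, at 21.1 ± 13.2 FPKM, overlapped Kera, Prelp and Podn.

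**Figure D2:**
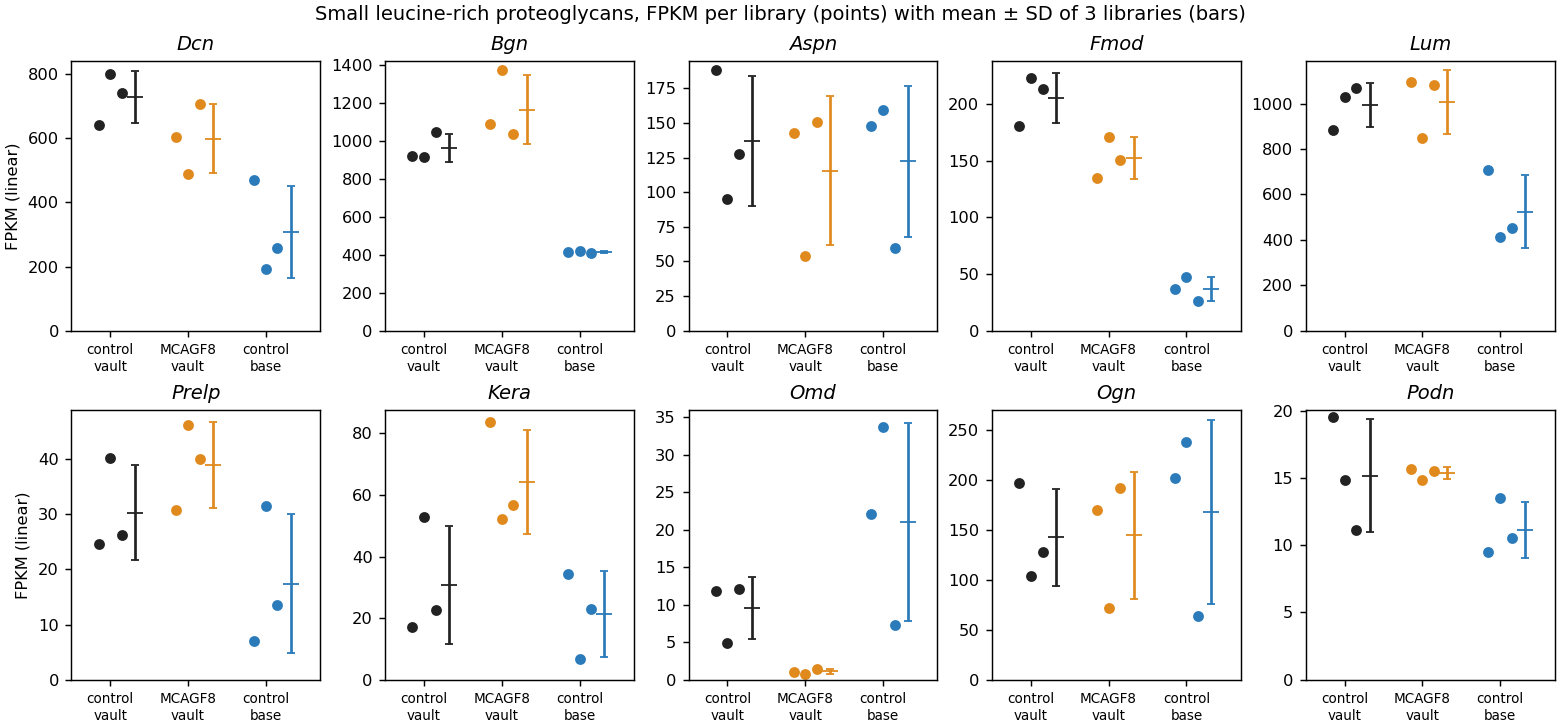
Each panel plots 1 gene on a linear FPKM axis from 0, with a point for each of the 3 libraries of a group and a bar for the mean ± SD of 3 libraries. Bgn, Fmod, Dcn and Lum sit lower in the base, the 3 MCAGF8 vault points of Omd lie between 0.831 and 1.46 FPKM, and Aspn and Ogn overlap in all groups.

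The comparison of the MCAGF8 vault with the control vault asks what ectodermal Fgf8 changed in the vault. The test was limma on log2(FPKM + 1), and a gene was called when its p was under 0.05 before and under 0.1 after Benjamini-Hochberg adjustment. None of the 10 genes was called, and 1 of them, Omd, had an unadjusted p under the threshold (0.00138). Over all 18714 genes, 0.23% were called higher and 0.374% lower. A per-gene linear model without moderation called 0 genes in the whole table and so gives no reading of the 10. The median log2 difference of the 10 genes was -0.02, beside -0.01 over all genes. For 2 of the 10 genes, Omd and Fmod, no library of one vault lay within the range of the other, which held for 19.2% of all genes.

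Omd was the gene that stood furthest apart. It was at 11.8, 4.85 and 12.1 FPKM in the control vault and at 1.02, 0.831 and 1.46 FPKM in the MCAGF8 vault. Every MCAGF8 library was below every control library, and the mean was 8.70-fold lower. On the log2(FPKM + 1) scale the difference was -2.25 with a standard error of 0.51 and a 95% interval of -3.39 to -1.12, but over all genes the adjusted p of limma was 0.151. It passed with a pseudocount of 0.1 (adjusted p 0.0654), when the base libraries were left out of the fit (0.0749) and without control base replicate 2 or 3 (0.0782 and 0.0774), and in the other 14 alternatives it did not, with adjusted p up to 0.555. Among those 14, the fit without moderation called 0 genes in the whole table and the replicate block called 19. Fits without 1 MCAGF8 vault library or without control vault replicate 1 or 3 called 11 to 14 genes.

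Osteoblast markers moved beside Omd. All 10 genes of that list were lower in the MCAGF8 vault, 6 of them called, and their summed FPKM was 143 to 290 against 1376 to 3369 in the control vault. Ibsp, the bone sialoprotein gene, was at 1487, 679 and 1527 FPKM in the control vault and at 11.5, 50.7 and 12.5 FPKM in the MCAGF8 vault. Within the control vault, replicate 2 was the lowest library for both Omd and Ibsp. In the MCAGF8 vault, replicate 2 had the lowest Omd and the highest Ibsp. Replicate 3 did so in the base, where Ibsp was at 189, 199 and 638 FPKM. The part of osteoblast number in the Omd value was not tested. In the base the osteoblast sum was 496 to 1382, reaching only the lowest library of the control vault, while Omd there was at 22.1, 33.7 and 7.34 FPKM.

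Fmod, which binds collagen I and II fibrils through its leucine-rich repeats, was at 180.4, 223 and 213 FPKM in the control vault and at 134, 171 and 151 FPKM in the MCAGF8 vault. The groups did not overlap, but the gap was small, with a log2 difference of -0.43 (SE 0.23) and an adjusted p of 0.897 in limma. Tendon markers were also lower there, 6 of 6 with 1 called, Thbs4, and their sum was 310 to 346 against 521 to 715. Tnmd, the tenomodulin gene, was at 81.8 ± 15.7 against 295 ± 70.5 FPKM. Their part in the Fmod value was not tested.

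Kera went the other way in its means. It was at 17.0, 52.8 and 22.8 FPKM in the control vault and at 83.6, 52.3 and 56.6 FPKM in the MCAGF8 vault. Control replicate 2 lay within the MCAGF8 range, and the log2 difference of 1.17 (SE 0.56) had an interval of -0.10 to 2.43 and an adjusted p of 0.856 in limma. Without that control library the log2 difference reached 1.62, still not called.

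The other 7 genes overlapped between the vaults, with log2 differences from -0.33 (Aspn) to 0.37 (Prelp). Lum, first by mean RNA level in the control vault, was at 882, 1029 and 1067 FPKM there. In the MCAGF8 vault it was at 1097, 846 and 1080 FPKM, a log2 difference of 0.02 with an interval of -0.60 to 0.63. For Bgn the values were 921, 915 and 1046 FPKM in the control vault and 1088, 1373 and 1036 FPKM in the MCAGF8 vault, with an interval of -0.23 to 0.77. The intervals were widest for Aspn, from -1.41 to 0.76, Ogn, from -1.23 to 1.13, and Prelp, from -0.62 to 1.35.

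**Figure D3:**
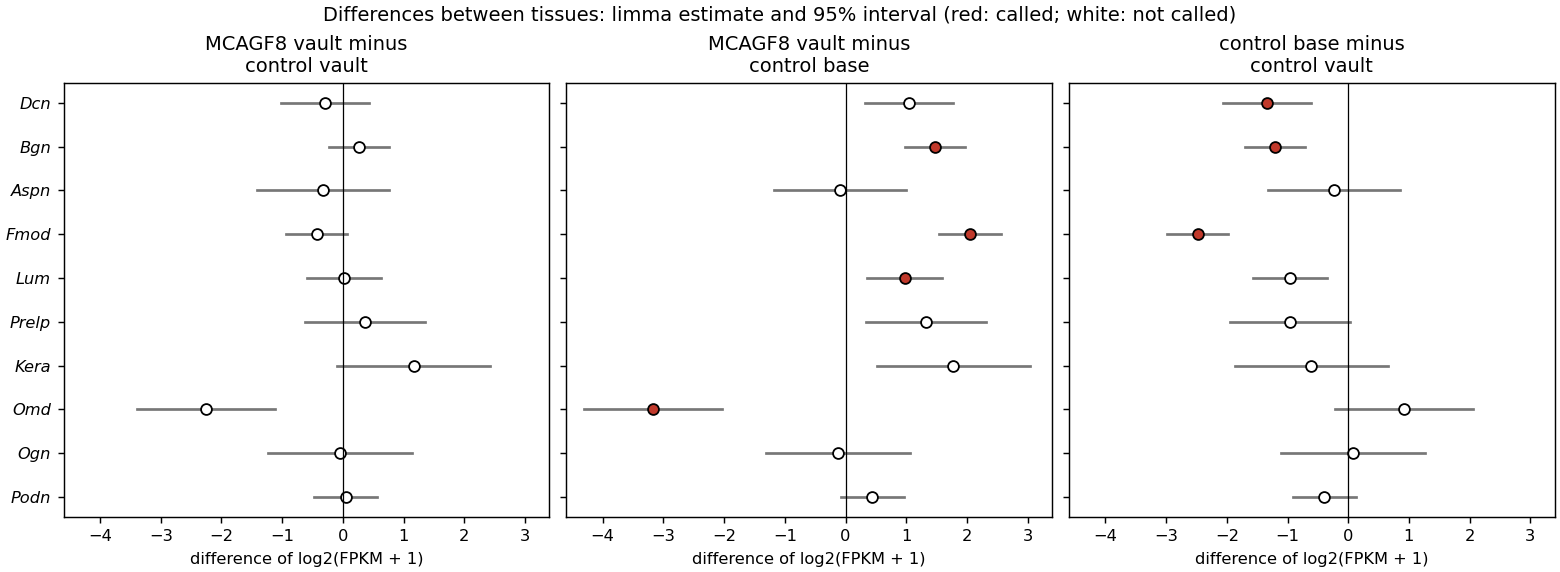
Each panel gives the log2(FPKM + 1) difference of the 10 genes for 1 comparison, first group minus second, with circles for the limma estimate, lines for its 95% interval and red circles for genes called. No circle is red in the first panel, where Omd lies at -2.25, and Fmod is the furthest called gene of the base and control vault panel at -2.48.

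The MCAGF8 vault was next set against the control base, since the study asked how far the altered vault resembled cartilage. These groups differ in region as well as genotype, so a difference between them cannot be assigned to the allele. Rose and fell give only the direction of the first group relative to the second. Bgn, Fmod and Lum were higher in the MCAGF8 vault than in the base, and Omd was lower. That is 3 of 10 genes called higher, beside 2.98% of all genes, and 1 of 10 called lower, beside 5.41%. Of all called genes, 558 of 1571 were higher in the MCAGF8 vault, against 1153 of 1963 after quantile normalization and 771 of 1599 after rescaling to a common sum, and under either scaling 6 of the 10 genes were called, Dcn and Kera higher beside Bgn, Fmod, Lum and Omd in their earlier direction. The groups did not overlap for 7 of 10 genes, Dcn, Bgn, Fmod, Lum, Kera, Omd and Podn, beside 21.9% of all genes. The median log2 difference was 1.01, beside -0.07 over all genes.

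Fmod was at 36.5, 47.6 and 26.3 FPKM in the base, below 134 to 171 in the MCAGF8 vault. The mean was 4.13-fold higher in the vault, with a log2 difference of 2.05 (SE 0.23, adjusted p 0.00291, limma). Bgn in the base was nearly the same in all libraries, 415, 421 and 407 FPKM, and 2.81-fold higher in the MCAGF8 vault, with a log2 difference of 1.48 (SE 0.22, adjusted p 0.00860). Both calls held in 18 of 18 alternatives. The tendon list was split here, with 3 of 6 means higher in the MCAGF8 vault and 3 higher in the base. In the vault Tnc was called higher (log2 difference 1.46) and Thbs4 lower (-2.82).

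Lum, at 709, 411 and 453 FPKM in the base, was 1.92-fold higher in the MCAGF8 vault (log2 difference 0.97, SE 0.27). Its adjusted p in limma was 0.0801, and the call was lost in 11 of 18 alternatives. Leaving out any 1 of the 6 vault libraries or base replicate 3 ended it, with adjusted p from 0.127 to 0.277, as did a fit without the control vault, at 0.223, and the replicate block, at 0.192. Dcn, the neighbour of Lum, was at 604, 488 and 705 FPKM in the MCAGF8 vault and at 468, 193 and 258 FPKM in the base, a log2 difference of 1.05 (SE 0.32) that missed the threshold with an adjusted p of 0.106. It was called in 5 of 18 alternatives, among them without base replicate 1, at 0.0219, after quantile normalization, at 0.0169, and after rescaling, at 0.0207.

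Omd fell by 3.18 on the log2(FPKM + 1) scale (SE 0.51, adjusted p 0.0107, limma). The mean was 19.1-fold lower than in the base, and the call held in 18 of 18 alternatives. Of the osteoblast list, 9 of 10 genes were lower in the MCAGF8 vault than in the base, 5 of them called.

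Kera and Prelp had the larger means in the MCAGF8 vault without passing. Kera in the base was at 34.4, 6.60 and 23.1 FPKM, all below the MCAGF8 vault, with a log2 difference of 1.78 (SE 0.56, adjusted p 0.115, limma), and it was called in 4 of 18 alternatives, among them without base replicate 1, at 0.0762, after quantile normalization, at 0.0978, and after rescaling, at 0.0508. Prelp, which anchors basement membrane to collagen, was at 30.8, 46.2 and 40.0 FPKM in the MCAGF8 vault and at 7.11, 31.6 and 13.6 FPKM in the base. Base replicate 2 overlapped the vault, and the log2 difference of 1.33 (SE 0.44, adjusted p 0.130) became 1.86 without that library, with an adjusted p of 0.00949. The replicate block called it too, at 0.0719.

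Podn, a podocan with a longer run of repeats, was at 15.7, 14.8 and 15.5 FPKM in the MCAGF8 vault and at 9.48, 13.5 and 10.5 FPKM in the base. The libraries did not overlap, but the log2 difference of 0.44 (SE 0.23) had an adjusted p of 0.331. Aspn and Ogn overlapped, with log2 differences of -0.09 and -0.13, and both signs turned positive after quantile normalization or rescaling.

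The control base and the control vault share their genotype, so this comparison is of normal skull regions. Dcn, Bgn and Fmod fell in the base. These were 3 of 10 genes called lower, beside 1.21% of all genes, with 0 called higher, beside 1.85%. Of all called genes 347 of 573 were higher in the base, against 236 of 626 after quantile normalization. The median log2 difference was -0.78, beside 0.07 over all genes, and the groups did not overlap for 4 of 10 genes, Dcn, Bgn, Fmod and Lum, beside 15.5% of all genes. This comparison and the one before share the base libraries, so their directions are not independent.

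Fmod was 5.58-fold lower in the base, with a log2 difference of -2.48 (SE 0.23, adjusted p 0.00184, limma), called in 18 of 18 alternatives. The summed tendon markers were also lower in the base, at 217 to 274, but the list was split, with Tnmd, Tnc and Mkx called lower and the other 3 of 6 with a higher mean and not called. Thbs4 was at 31.0 FPKM on average in the base and 18.0 in the control vault, with no overlap and an adjusted p of 0.136 in limma. The part of these genes in the Fmod value was not tested. Tnmd was at 56.3 ± 35.5 FPKM in the base, while Scx, the tendon progenitor factor, was at 51.9 ± 19.5 FPKM there and at 37.5 ± 7.83 FPKM in the control vault.

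Bgn was 2.32-fold lower, with a log2 difference of -1.21 (SE 0.22, adjusted p 0.0342, limma). The call was lost without any 1 control vault library, with adjusted p from 0.123 to 0.168, in a fit without the MCAGF8 vault, at 0.133, and with the replicate block, at 0.155. Dcn was at 641, 800.4 and 741 FPKM in the control vault and was 2.37-fold lower in the base, with a log2 difference of -1.34 (SE 0.32, adjusted p 0.0860). Its libraries did not overlap, and the call held in only 7 of 18 alternatives. It was lost without any 1 vault library of either genotype or base replicate 3 (adjusted p from 0.113 to 0.276), in a fit without the MCAGF8 vault as a whole (0.231) and with the replicate block (0.191).

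Lum, at a log2 difference of -0.96 (SE 0.27), and Prelp, also at -0.96 (SE 0.44), were not called, with adjusted p of 0.139 and 0.405 in limma. Lum was called without base replicate 1, at 0.0423, and Prelp without base replicate 2, at 0.0414. Omd had the larger mean in the base by 2.20-fold, but its libraries overlapped, and the log2 difference of 0.92 (SE 0.51) had an interval of -0.21 to 2.06 and an adjusted p of 0.537. The 3 tissues thus stood in the order MCAGF8 vault, control vault, base for mean Omd, with the control vault and the base not separated by their spread.

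Ratios within a library describe how neighbouring genes moved against each other. They were chosen after the values had been seen and carry no test. Ogn divided by Aspn lay between 0.999 and 1.50 in all 9 libraries, a 1.50-fold range, although Ogn itself varied 3.74-fold, from 63.7 to 238 FPKM, and Aspn 3.51-fold, from 53.6 to 188 FPKM. The ratio was 1.05, 1.09 and 0.999 in the control vault, below the MCAGF8 vault at 1.19, 1.35 and 1.27. In the base it was 1.37, 1.50 and 1.07, overlapping both vaults. The lowest library of each group was the same for both genes, replicate 2 in either vault and replicate 3 in the base.

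Omd, which lies between them, did not keep such a ratio. Omd divided by Ogn was 0.0600, 0.0468 and 0.0950 in the control vault, 0.00599, 0.0115 and 0.00762 in the MCAGF8 vault and 0.110, 0.142 and 0.115 in the base. The 3 groups did not overlap, and the highest ratio was 23.6 times the lowest. Cenpp, the gene that holds all 3 on the opposite strand, was at 15.1, 19.9 and 16.9 FPKM in the control vault, 8.41, 12.3 and 11.4 FPKM in the MCAGF8 vault and 40.9, 14.7 and 17.7 FPKM in the base. Cenpp was thus above Omd in every library of both vaults, and the share of reads that could be assigned to either gene was not tested.

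**Figure D4:**
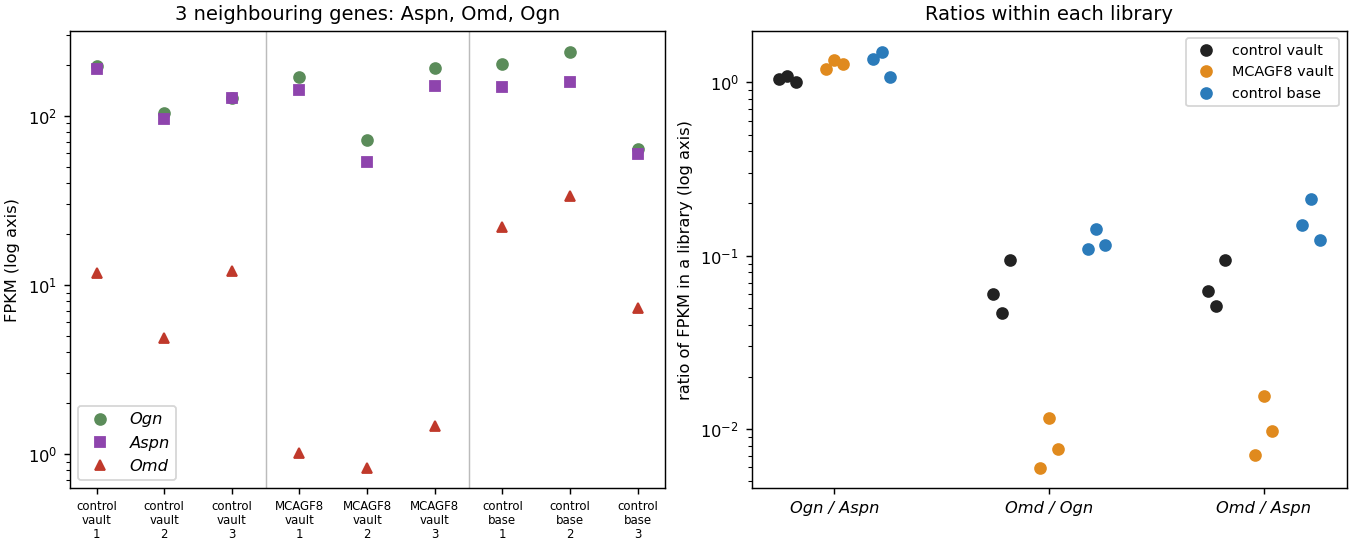
The left panel plots FPKM of Ogn, Aspn and Omd in each of the 9 libraries on a log axis, and the right panel plots their ratios within each library on a log axis, 3 points per group. Ogn and Aspn points nearly coincide, with ratios from 0.999 to 1.50, while Omd divided by Ogn spans 0.00599 to 0.142 with the groups apart.

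On chromosome 10, Lum divided by Dcn stayed within 1.29 to 2.13 over the 9 libraries, with the control vault at 1.29 to 1.44 below the MCAGF8 vault at 1.53 to 1.82. Kera divided by Lum was 0.0763, 0.0618 and 0.0524 in the MCAGF8 vault and 0.0193, 0.0513 and 0.0214 in the control vault. In the base it was 0.0485, 0.0161 and 0.0510, overlapping the control vault. Among Dcn, Lum and Kera, Kera thus moved most against the others, and ratios to Epyc were not taken. On chromosome 1, Prelp divided by Fmod was 0.136, 0.180 and 0.123 in the control vault, 0.229, 0.270 and 0.265 in the MCAGF8 vault and 0.195, 0.663 and 0.519 in the base, with both vaults apart from each other.

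**Figure D5:**
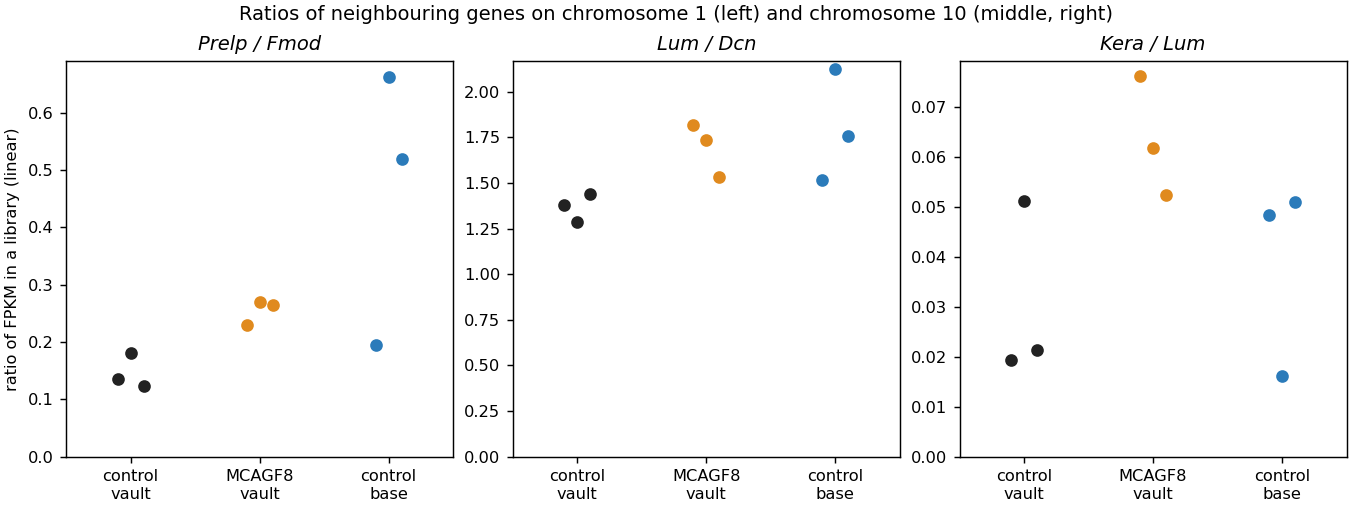
Points give the ratio of FPKM of neighbouring genes within each library, 3 libraries per group, on linear axes from 0. Prelp divided by Fmod and Lum divided by Dcn are lower in all control vault libraries than in all MCAGF8 vault libraries, and Kera divided by Lum is highest in the MCAGF8 vault, at 0.0524 to 0.0763.

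The genes whose log2(FPKM + 1) followed each member most closely over the 9 libraries, among 12934 genes with a mean of at least 5 FPKM, are given as a description. The libraries fall into 3 groups, so a group difference alone gives a high coefficient. Dcn and Lum were near the top for each other, with a Pearson r of 0.97, next to Serpinb1a (0.97) for Dcn and before Angpt2 (0.96) and Snx2 (0.95) for Lum, with Angpt2 (0.94) next for Dcn. Omd was closest to Hhip (0.98), the Hedgehog interacting protein gene, Ihh (0.97), the Indian hedgehog gene, and Slc35g1 (0.95). Ihh was at 6.60, 3.78 and 7.23 FPKM in the control vault, 0.911, 1.44 and 1.58 FPKM in the MCAGF8 vault and 11.0, 23.0 and 8.75 FPKM in the base, the same order of groups as Omd. Bgn was closest to Msx2 (0.996), a homeobox gene of the vault at 80.3 ± 8.39, 120 ± 27.6 and 12.1 ± 1.59 FPKM in the 3 groups, then to Kank4 and Slc16a9 (both 0.99).

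For Fmod the closest genes were Fam114a1, Pdgfrl and Bicc1 (all 0.97), and for Prelp they were Nid2, a basement membrane nidogen gene, and Pdcd6ip (both 0.98) and Thbs1 (0.97), the thrombospondin-1 gene. Stx4a (0.94) and Hoxd8 (0.93) were among the closest to Kera. Aspn was closest to Tmed5 (0.97), Gm5909 and Crnkl1 (both 0.96), and Ogn to Gm5909, Cops2 and Zfp617 (all 0.98). Podn had the loosest matches, Gm20689, Apbb2 and E530011L22Rik, at 0.90.

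The genes of the surrounding pathway were counted by list. Of 9 further family genes, 7 were tested. None was called in the comparisons with the control vault, where 0 (MCAGF8 vault) and 2 (base) had an unadjusted p under the threshold, and 1 passed against the base: Tsku, the tsukushi gene, rose in the MCAGF8 vault against the base (45.4 against 29.3 FPKM, log2 difference 0.60, adjusted p 0.0865, limma). The list's medians were 0.10 between the vaults, 0.45 for the MCAGF8 vault against the base and -0.16 for the base against the control vault. Epyc, the epiphycan gene at the end of the chromosome 10 row, was at 84.1, 313 and 30.0 FPKM in the base, highest in the library with the high Col2a1.

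Fibril collagens and their partners, the binding partners of these proteoglycans, were tested as 12 genes. Between the vaults 0 of 12 were called and 0 had an unadjusted p under the threshold, with a median of 0.18. Against the base, 12 of 12 were higher in the MCAGF8 vault, 9 of them called, with a median of 1.26. Col1a2 (log2 difference 1.91) and Col1a1 (1.82), the type I collagen chains, Col14a1 (1.55) and Col12a1 (1.42) led. In the base against the control vault 11 of 12 were lower, 8 of them called, with a median of -1.02. The called genes were led by Col1a1 at -2.30, Col1a2 at -2.14, Col5a2 at -1.51 and Col14a1 at -1.19.

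Of 5 lysyl oxidases, which cross-link collagen, Lox rose by 0.96 and Loxl4 fell by 2.22 on the log2 scale in the MCAGF8 vault against the base, and Lox fell by 1.18 in the base against the control vault. None was called between the vaults, with 1 at an unadjusted p under the threshold. The list medians were -0.10 between the vaults, 0.78 against the base and -0.52 for the base against the control vault.

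Proteinases that cut these proteoglycans or procollagen, together with enhancers of procollagen cleavage, were tested as 11 genes. Between the vaults 0 were called and 4 had an unadjusted p under the threshold. Of these, Mmp13 (log2 difference -1.81), Pcolce2 (-1.31) and Pcolce (-0.77) were lower in the MCAGF8 vault and Htra1 (0.76) was higher. The study reported Htra1 as upregulated in the mutants. Against the base 9 were higher in the MCAGF8 vault, 6 of them called, and 2 were lower, both called, with a median of 0.87. Htra1, a secreted serine protease, rose by 2.13 and Adamts4, an aggrecanase, by 1.01, while Mmp13, a collagenase, fell by 2.52 and Pcolce2, a procollagen C-proteinase enhancer, by 2.29. In the base against the control vault 8 of 11 were lower, with a median of -0.55. The 3 called were Pcolce, which fell by 1.67, Htra1, by 1.36, and Adamts4, by 0.83.

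The enzymes that build the sugar chains were counted as 2 lists. Of 10 linker and dermatan sulfate enzymes, Chst14, the dermatan 4-O-sulfotransferase, rose by 0.78 in the MCAGF8 vault against the base and no other was called in any comparison, with 0 between the vaults and 3 between the control tissues at an unadjusted p under the threshold and medians of 0.00 between the vaults, 0.26 against the base and -0.09 for the base against the control vault. Of 8 keratan sulfate and tyrosine sulfation enzymes, the sulfotransferases Chst2 and Chst1 rose by 0.91 and 0.83 and Chst5 fell by 1.04 against the base, and 0 were called in the comparisons with the control vault, where 2 genes in each had an unadjusted p under the threshold. That list's medians were -0.05, 0.15 and -0.26. Of 10 growth factors and receptors bound by decorin or biglycan, Bmp4 and Lrp1 rose by 0.94 and 0.84 and Met fell by 1.09 against the base, with 0 called in the comparisons with the control vault (3 for the MCAGF8 vault and 1 for the base at an unadjusted p under the threshold) and medians of 0.06, 0.25 and -0.21.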

How the data were processed

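Each group had 9 tissue samples, whose RNA was pooled by 3 into 3 libraries. Stranded mRNA libraries were read from one end. The authors mapped with gSNAP and deposited Cufflinks FPKM for each Ensembl identifier. Not given in the sources used here: program versions, genome build, annotation. Read depth is unknown, so no counting interval is given, and precision is the SD of 3 pools.

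From the FPKM, 63 rows with an identifier already listed were added to that identifier's value, and 9 genes with a placeholder in 17 cells were left out, none of them a member. Symbols came from GENCODE M21 for 42384 of 43548 identifiers. Genes whose mean FPKM reached 0.5 were fitted on log2(FPKM + 1) with limma 3.58.1 (lmFit, contrasts.fit, eBayes with trend; R 4.3.3), 1 mean per group over all 9 libraries, two-sided, as the moderated form of the ANOVA the authors describe. The call needed p under 0.05 unadjusted and under 0.1 after Benjamini-Hochberg adjustment. Fold ratios are of mean FPKM with no pseudocount, and log2 differences understate the change of low genes. Python 3.11.15 with numpy 2.4.6, pandas 2.3.3 and matplotlib 3.10.9 served for tables and plots. The fit was tested on simulated data first.

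The members and lists were chosen with earlier results of these data known. Named genes were the 10 members, at most 4 called genes per list and comparison with the largest log2 difference, the 3 genes most correlated with each member (1 of them is not reported here), and Fgf8. Cenpp, Col2a1, Crabp1, Epyc, Ibsp, Ihh, Krt5, Lef1, Mfap5, Mkx, Msx2, Pkp1, Scx, Thbs4, Tnc, Tnmd and Twist2 were named or given values after those had been seen. The same holds for Htra1, Mmp13, Pcolce and Pcolce2 between the vaults. The 12 muscle, 10 osteoblast and 6 tendon genes come from a wider set of marker lists. Epidermis and dermal fibroblast sums in the base were 107 to 695 and 335 to 624. The summed FPKM of the others ran, in the control vault, MCAGF8 vault and base, from 2075 to 3009, 2858 to 5256 and 1003 to 10312 for chondrocyte, 673 to 818, 652 to 1186 and 413 to 885 for meninges (8 of 9 genes in the table), 32.0 to 173, 41.8 to 79.5 and 247 to 716 for neuron, 362 to 432, 440 to 522 and 323 to 356 for endothelium, 221 to 294, 218 to 366 and 104 to 247 for macrophage, and 10738 to 14912, 8650 to 13489 and 4341 to 8472 for erythroid genes.

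Alternatives were quantile normalization, rescaling to a sum of 1000000, a pseudocount of 0.1, a filter at 5 FPKM or none, the libraries of both groups only, the replicate number as a block, no moderation, other thresholds and each library left out. A covariate for the slope of each library on exon length was chosen after seeing the data.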

Additional observations from a re-analysis of the deposited data

How the results depend on the processing

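Each of the 30 differences of the 10 genes was refitted under 18 alternatives, and 21 kept their direction in all of them. Of 540 values 26 turned, in 5 genes (Aspn, Kera, Lum, Ogn and Podn), none of them a called difference. Bgn, Fmod and Omd against the base and Fmod between the control tissues were called in 18 of 18. Between the vaults, 1 member (Omd) was called with a pseudocount of 0.1, with the libraries of both groups only and at an unadjusted p alone, and 0 to 1 with 1 library left out, the 1 without control base replicate 2 or 3. For the MCAGF8 vault against the base, 7 were called at an unadjusted p alone and 3 to 6 with 1 library left out, beside 4. For the base against the control vault, 1 was called with the libraries of both groups only, 1 with the replicate block and 1 to 4 with 1 library left out, beside 3, the 1 without each control vault replicate. The cause was not tested.

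Between the vaults Ogn was 0.10 after quantile normalization and 0.12 after rescaling, and Podn -0.046 with the length slope. Against the base Aspn was 0.056 and 0.12 and Ogn 0.022 and 0.084 after the same 2 scalings. With 1 library left out, the vault differences ran from -0.58 to 0.15 for Aspn, -0.066 to 0.14 for Lum, -0.31 to 0.39 for Ogn and -0.14 to 0.24 for Podn. Those against the base ran from -0.54 to 0.38 for Aspn and -0.72 to 0.31 for Ogn, and those between the control tissues from -0.48 to 0.22 for Aspn, -1.07 to 0.037 for Kera and -0.27 to 0.67 for Ogn.

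Whether the replicate numbers pair the libraries is not stated. Deviations of same-numbered libraries from their group means correlated between -0.55 and 0.37. With 3 libraries per group these values cannot show whether the libraries were paired. With the replicate block, genes called over the whole table went from 113 to 19 between the vaults, from 1571 to 918 against the base and from 573 to 234 between the control tissues. Of the members it lost Lum and called Prelp against the base, lost Dcn and Bgn between the control tissues, and changed no other call.

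Over the whole table, other settings moved these 3 counts by more than 1.5 times as follows. They gave 191, 66 and 71 between the vaults with a pseudocount of 0.1, no filter and a mean FPKM of at least 5, 834 and 291 against and within controls with that stricter filter, 174, 875 and 108 with the libraries of both groups only, and 0, 869 and 257 without moderation. The length slope gave 1388 between the control tissues. With 1 library left out the counts ran from 11 to 231, from 559 to 4580 and from 132 to 1322, each highest without control base replicate 2. Quantile normalization moved the share called higher from 558 of 1571 to 1153 of 1963 against the base (771 of 1599 after rescaling) and from 347 of 573 to 236 of 626 between the control tissues. Rescaling moved the median of all genes from -0.01 to 0.13 between the vaults and from -0.07 to 0.11 against the base. Pools of 3 hide the spread between embryos, and the unknown depth limits what can be said of Omd near 1 FPKM.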
